A study of Homo sapiens with 52 samples.

Results

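Expression of 36 genes of cholesterol synthesis, of its control by sterol regulatory element-binding proteins (SREBPs) and of the neighbouring lipid pathways was followed in fusion-positive rhabdomyosarcoma (FP-RMS) cells exposed to small molecules. The members were looked up by gene symbol in the deposited tables, and all 36 were found among 27043 genes. By role they comprised 7 genes of the mevalonate arm, 11 of the steps from squalene to cholesterol, 6 that control SREBPs or carry sterol for them, 7 of fatty acid synthesis and 5 of sterol transport or of the liver X receptor (LXR) programme. The rule names the genes and uses no measured value, but it was written with earlier results of these data known.

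Cells make cholesterol from acetyl-CoA through mevalonate and squalene. When sterol in the endoplasmic reticulum is low, SCAP escorts SREBP precursors to the Golgi, where they are cleaved, and the released factors switch on the genes of synthesis. When sterol is plentiful, INSIG proteins hold SCAP back, and oxysterols activate LXR, which raises SREBF1, the cholesterol exporters ABCA1 and ABCG1, and MYLIP, a ubiquitin ligase that removes lipoprotein receptors. Because INSIG1 is itself an SREBP target, its transcript is widely read as a gauge of the pathway.

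RNA-seq was available for 52 samples of cells that carry the PAX3-FOXO1 fusion and were grown in medium with serum. In the screen, 20 compounds were each applied for 6 h at a high and a low dose, 1 sample per dose, the high dose being 10 and the low 1 µM, or 5 and 0.5 µM for Cpd50, GSKJ4 and LAQ824. The controls were 4 DMSO samples, 2 at 0.2% for the high doses and 2 at 0.1% for the low doses. Separate experiments held N1302 at 1 µM with 1 DMSO sample at 6 h, and entinostat at 1 µM with DMSO at 1, 6 and 24 h, 1 sample each. HDAC inhibitors were LAQ824, MC1568 (labelled for HDAC4/5), Merck60 (HDAC1/2), OJI-1 (HDAC8) and WT161 (HDAC6), together with N1302 and entinostat (HDAC1/2/3) outside the screen. They were contrasted with UNC0638, a lipophilic amine that inhibits the histone methyltransferase KMT1C, and the 3 inhibitors of the demethylase LSD1, named GSKLSD1, LSD-519 and LSD-690. Of the other 11 compounds, bromosporin and SGC-CBP30 act on bromodomains, EZ-005 on EZH2, UNC1999 on EZH2 and EZH1, and SGC0946 on DOT1L. PFI-2 acts on SETD7, PFI-3 on SMARCA4, UNC-1215 on L3MBTL3, GSKJ4 on JMJD3/UTX, Cpd50 on Jumonji demethylases and trametinib on MEK1/2. Screen titles say RH41 while the cell-line label says RH4, so changes were always taken within an experiment.

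The samples carried the muscle markers of the tumour. MYOG lay between 32.2 and 1287 TPM and DES between 188 and 768 TPM, whereas PTPRC, EPCAM and PECAM1, which mark blood, epithelium and endothelium, stayed at or below 0.83 TPM in every sample. TPM is a level scaled for transcript length that sums to the same total in each sample. Depth, worked out from the steps of the values, ran from 5737939 to 41415071 reads. In 3 libraries, bromosporin, Merck60 and PFI-2 at the high dose, the reads worked out were mostly even, so that their depth may be overstated by a factor of 2, and PFI-2 would then hold 5616179 reads. The 28 samples of flow cell C5JW5ACXX, which held 14 compounds at both doses, included no DMSO sample. Neither did the 4 samples of flow cell H0VWNAGXX, which held GSKLSD1 and UNC-1215. All tests below rest on samples that the labels do not call separate cultures. Their p-values thus measure only the spread between these samples, which may be technical. In the fit of compounds against DMSO that spread also holds the difference between the doses of each compound.

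A change is the difference in log2(TPM + 1) from the DMSO samples of the same concentration, experiment and time, and the set mean is its average over the members. Of the members, 35 passed the filter of at least 1 TPM in 2 or more samples, as did 16359 of all genes. ABCA1 did not pass. ABCG1 passed only through 17 treated samples, all DMSO values being below 1 TPM, so its levels are given without a test, though it is among the members counted. Each compound was tested against DMSO with limma over all 16359 genes, both doses serving as its samples, with 0.05 as the limit of the adjusted p for a call. The spread, shared over all compounds, took in the difference between each compound's doses. A change that depended on dose was thus harder to call. Fold changes on the log2(TPM + 1) scale understate the change of low genes. ABCG1 adds to the members called higher under LAQ824, LSD-690, MC1568 and WT161. It also enters the transport and LXR means, which were not worked out without it. With a filter of a mean of at least 5 TPM, which ABCG1 does not pass, these compounds had 26, 2, 9 and 17 members called. The main fit called 26, 3, 9 and 17. Shares of all genes called under a compound were counted for the main fit only, not for other settings or left-out samples.

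The controls were compared first. In the 4 DMSO samples the mean log2(TPM + 1) of the members differed from their common mean by -0.03 and -0.02 at 0.2% and by 0.02 and 0.03 at 0.1%. No member, and 0% of all genes, passed between concentrations with limma, while 10 members and 1548 genes had an unadjusted p below 0.05. The differences with an unadjusted p below 0.05 were small, and the largest of them was the lower SREBF1 at 0.2% (-0.24 ± 0.03 on the log2 scale, SE).

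TM7SF2 was called higher under 6 compounds and HSD17B7, STARD4 and CYP51A1 under 5 each, more than any other member, and the promoters of these 4 are shown for comparison. All 4 were called together under LAQ824 and MC1568 only. TM7SF2 and HSD17B7 encode a sterol reductase and a 3-ketosteroid reductase of late cholesterol synthesis, CYP51A1 the lanosterol demethylase, and STARD4 a cytosolic sterol carrier. The sequences are the 250 bases before the transcript start from RefSeq on GRCh38.p14, and capitals mark CCAAT or its reverse complement ATTGG. TM7SF2 is at chr11:65111622-65111871 on the plus strand, HSD17B7 at chr1:162790452-162790701 on the plus strand, STARD4 at chr5:111512536-111512785 on the minus strand and CYP51A1 at chr7:92134478-92134727 on the minus strand.
TM7SF2: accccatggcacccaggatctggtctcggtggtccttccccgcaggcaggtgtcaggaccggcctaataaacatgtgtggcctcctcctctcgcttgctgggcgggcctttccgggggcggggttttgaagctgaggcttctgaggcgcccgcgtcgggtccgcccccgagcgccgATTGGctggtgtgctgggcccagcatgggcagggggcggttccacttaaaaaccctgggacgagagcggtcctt
HSD17B7: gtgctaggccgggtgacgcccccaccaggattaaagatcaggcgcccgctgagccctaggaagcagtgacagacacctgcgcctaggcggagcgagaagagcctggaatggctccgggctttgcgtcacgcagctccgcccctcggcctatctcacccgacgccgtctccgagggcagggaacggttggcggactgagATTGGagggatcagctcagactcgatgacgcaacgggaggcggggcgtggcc
STARD4: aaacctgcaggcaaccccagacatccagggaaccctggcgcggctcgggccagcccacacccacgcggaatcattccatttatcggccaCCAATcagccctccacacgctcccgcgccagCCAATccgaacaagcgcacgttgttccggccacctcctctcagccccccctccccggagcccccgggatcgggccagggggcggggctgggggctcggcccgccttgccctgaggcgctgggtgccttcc
CYP51A1: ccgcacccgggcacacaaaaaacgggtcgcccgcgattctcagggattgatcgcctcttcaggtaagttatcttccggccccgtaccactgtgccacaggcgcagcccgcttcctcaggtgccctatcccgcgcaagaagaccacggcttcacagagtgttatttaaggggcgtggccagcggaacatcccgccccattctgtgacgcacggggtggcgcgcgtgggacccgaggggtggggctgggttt

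Motifs were searched on both strands of 35116 RefSeq windows of this length, 42 of which belonged to the 31 members that had an entry, some with several starts. CCAAT, the box bound by NF-Y, was present in 32% of all windows and in 25 of the 42 windows of members (59.5%), among them those of TM7SF2, HSD17B7 and STARD4 but not that of CYP51A1. TCACNCCAC, a core of the classical sterol regulatory element, was present in 0.883% of all windows and in 1 window of the members, that of SREBF2. The GC box GGGCGG was present in 42.6% of all windows and in 38 of the 42 (90.5%), and the E box CACGTG in 6.34% and in 5 of the 42 (11.9%). These counts describe letters in a short window and say nothing about binding. FDFT1, FASN, ACAT2, SQLE and ABCG1 had no entry in the table.

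Across the screen the set mean was above 0 under 18 of 20 compounds at the high dose and under 13 of 20 at the low dose. It was highest under UNC0638 at the high dose (1.10) and next under EZ-005 (0.98), SGC0946 (0.96) and LSD-690 (0.82) at the high dose. Merck60 at the high dose had the lowest value (-0.27). The change of the median gene was -0.17 under UNC0638, 0.04 under LSD-690 and 0.01 under Merck60 in these samples. Under GSKLSD1 at the low dose the set mean (0.15) lay below the median gene (0.16). In 19 of 20 compounds the set mean was higher at the high than at the low dose, Merck60 being the exception. The members' mean log2(TPM + 1) was 5.74 and 5.75 in the 0.2% DMSO samples and 5.78 and 5.79 in the 0.1% samples. The lower reference raised all high-dose set means relative to low-dose ones. The doses differed little under PFI-3 (-0.08 and -0.12) and UNC-1215 (0.05 and 0.0007). Bromosporin, PFI-2 and SGC-CBP30 lay just below 0 at the low dose (-0.02 each). Counts with a common reference were not worked out.

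**Figure D1:**
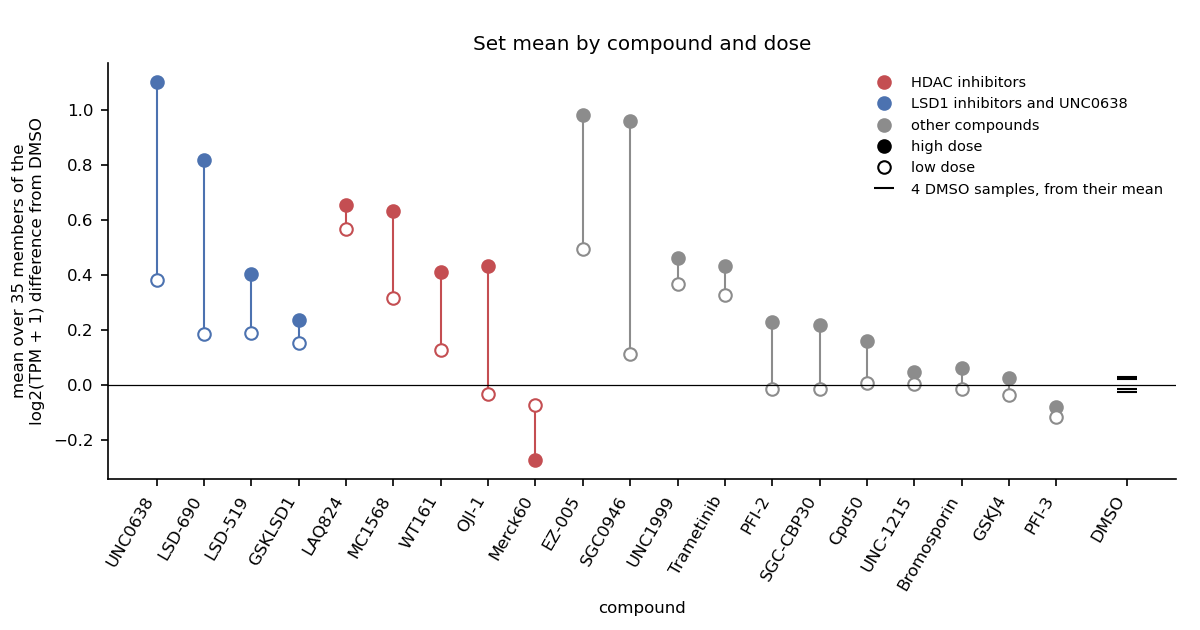
Set mean of the 35 members that passed the filter, as the mean difference in log2(TPM + 1) from DMSO of the same concentration (vertical axis), for each of 20 compounds (horizontal axis), at the high (filled) and low (open) dose. UNC0638 reaches 1.10 at the high dose, Merck60 alone falls further at the high dose (-0.27), and the bars at the right show that the 4 DMSO samples lie within 0.03 of their mean.

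In the limma fit 99 of 700 member-by-compound pairs were called, 79 higher and 20 lower than DMSO. The HDAC inhibitors held 52 of 175 pairs (29.7%, beside 27.5% over all genes), UNC0638 and the LSD1 inhibitors 22 of 140 (15.7%, beside 9.72%) and the other compounds 25 of 385 (6.49%, beside 7.02%). With a fold threshold of 2 the counts were 21, 17 and 11, and when each compound was fitted with DMSO alone they were 90, 41 and 121. Shares of all genes under these settings were not counted. All 35 members tested were called under at least 1 compound, 23 of them only higher, 5 only lower and 7 in both directions. The share of all genes called at least once was not counted. Under LAQ824 alone 32.4% of all genes were called higher and 28.1% lower. Calls came from 11 compounds, and under the other 9 no member was called.

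**Figure D2:**
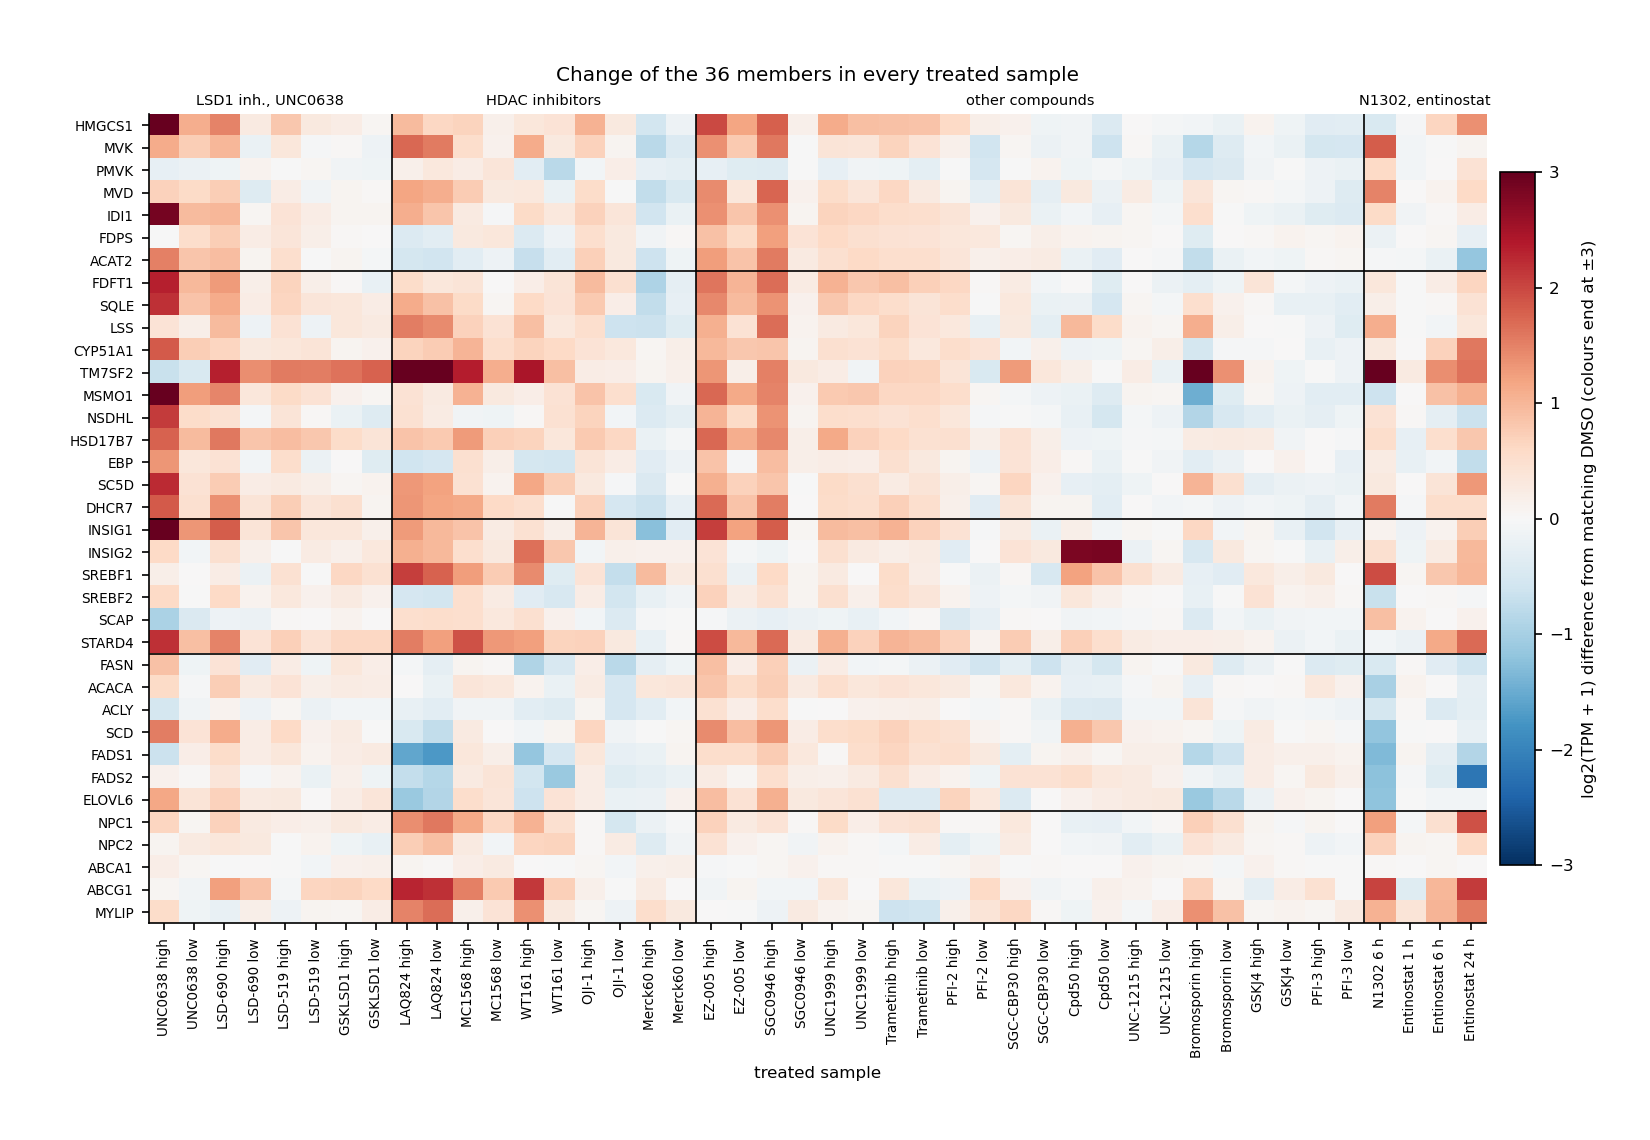
Difference in log2(TPM + 1) from matching DMSO for the 36 members (rows, grouped by role and separated by lines) in the 44 treated samples (columns), with red above and blue below DMSO. Most sterol synthesis genes in the upper rows are red under UNC0638, LSD-690, EZ-005 and SGC0946 at the high dose, except PMVK in all 4 and TM7SF2 and FDPS under UNC0638, TM7SF2 is highest under bromosporin, LAQ824 and N1302 (changes of 3.33 to 3.79), INSIG2 stands out under Cpd50, and FADS1, FADS2 and ELOVL6 are blue under LAQ824 and N1302.

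At its high dose UNC0638 had the highest mean change of the screen in the mevalonate arm (1.31) and from squalene to cholesterol (1.69). INSIG1 was at 77.3 and 78.8 TPM in the 0.2% DMSO samples and at 79.2 and 83.3 TPM in the 0.1% samples, and it stood at 1067 TPM at 10 µM and 204 TPM at 1 µM UNC0638. HMGCS1, which makes HMG-CoA, was at 82.0 to 94.1 TPM in DMSO and at 828 and 197 TPM under UNC0638. MSMO1, a sterol C4-methyl oxidase, was at 44.3 to 47.4 TPM in DMSO and at 414 and 114 TPM under UNC0638. Both doses thus lay above every DMSO sample for these genes, and the high dose lay far above the low one. With limma 17 of 35 members (48.6%) were higher than DMSO, beside 6.33% of all genes, and 1 was lower, beside 18.9% of all genes. The rises were led by INSIG1 (log2 fold change 2.54 ± 0.45, SE, adjusted p = 0.000574), MSMO1 (2.21 ± 0.36, adjusted p = 0.000275), HMGCS1 (2.20 ± 0.36, adjusted p = 0.000354), IDI1, the isopentenyl diphosphate isomerase (1.91 ± 0.32, adjusted p = 0.000367), and FDFT1, squalene synthase (1.66 ± 0.29, adjusted p = 0.000609). Without the high dose 0 members were called and without the low dose 25, while 2 were called with only the samples of UNC0638 and DMSO in the fit.

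By role, UNC0638 raised 4 of 7 mevalonate members, 9 of 11 from squalene to cholesterol, 2 of 6 in SREBP control, 2 of 7 of fatty acid synthesis and none of the 4 transport and LXR members tested. Not called in the sterol arm were PMVK, MVD and FDPS of the mevalonate arm and LSS and TM7SF2 of the later steps. TM7SF2, at 7.39 to 8.56 TPM in DMSO, was at 4.61 TPM at the high and 5.49 TPM at the low dose, below every DMSO sample, although it was not called. FDPS, the farnesyl diphosphate synthase, was at 236 TPM at the high and 341 TPM at the low dose, against 233 to 242 TPM in DMSO. SCAP was the member that fell, from 56.4 to 60.5 TPM in DMSO to 29.9 and 42.8 TPM, with a log2 fold change of -0.69 ± 0.11 (limma adjusted p = 0.000301). SCD, the stearoyl-CoA desaturase, rose from 334 to 370 TPM in DMSO to 966 and 493 TPM (0.97 ± 0.22, limma adjusted p = 0.00275). SREBF1 (35.2 and 37.0 TPM) and SREBF2 (273 and 191 TPM), which encode the SREBPs, were not called.

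The high-dose UNC0638 library differed from the others in more than these genes. At that dose 7.26% of all genes lay at least 2-fold above DMSO and 14.4% at least 2-fold below, and median-ratio scaling of the samples shifted all its changes by 0.17 on the log2 scale. The part of this wider change in the member values was not tested. With the other 13 compounds of the same flow cell as reference, 20 members were called under UNC0638, and INSIG1 (2.05), MSMO1 (1.85) and HMGCS1 (1.70) were still called. The share of all genes called in that fit was not counted. In bulk samples fewer cells of a kind and less RNA per cell cannot be told apart.

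Under the LSD1 inhibitors the member with the largest change was TM7SF2. It was at 44.1 and 22.2 TPM under LSD-690 at the high and low dose, at 25.3 and 24.9 TPM under LSD-519 and at 26.7 and 29.3 TPM under GSKLSD1, so that all 6 samples lay above the DMSO range. The doses lay close together under LSD-519 and GSKLSD1. TM7SF2 was called under LSD-690 (1.86 ± 0.46, limma adjusted p = 0.0172) and GSKLSD1 (1.70 ± 0.46, limma adjusted p = 0.0185), but not under LSD-519 (1.55 ± 0.46, limma adjusted p = 0.0908). The GSKLSD1 call was lost without either dose and with DMSO averaged within concentration. HSD17B7 was at 82.8 and 49.8 TPM under LSD-690, 51.5 and 48.5 TPM under LSD-519 and 39.8 and 36.2 TPM under GSKLSD1, against 25.3 to 29.5 TPM in DMSO. All 6 values again lay above DMSO, and LSD-690 was called (1.22 ± 0.24, limma adjusted p = 0.00344). HSD17B7 has a near-identical pseudogene copy in the genome, and how the counting split reads between them was not given in the sources used here.

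Of 35 members, LSD-690 raised 3 (8.57%, beside 2.67% of all genes), GSKLSD1 raised 1 (2.86%, beside 6.58%) and LSD-519 none (called in either direction: 1.74% of all genes). The third member under LSD-690 was ABCG1, which was at 2.40 and 1.69 TPM against 0.391 to 0.537 TPM in DMSO. Those DMSO values rest on 9 to 13 reads, and ABCG1 passed the filter only through treated samples. With the filter of a mean of at least 5 TPM, which ABCG1 does not pass, 2 members were called under LSD-690. At its high dose LSD-690 also had 12 members at least 2-fold above DMSO, beside 1.96% of all genes, among them INSIG1 at 275 TPM and HMGCS1 at 236 TPM, while at its low dose INSIG1 was at 107 TPM and HMGCS1 at 112 TPM. LSD-519 followed with 140 and 104 TPM of INSIG1, and GSKLSD1 with 98.8 and 90.1 TPM. All of these lay above the highest DMSO value of INSIG1, 83.3 TPM, without being called. The 3 calls under LSD-690 were lost with the other compounds of its flow cell as reference, and also without its high dose.

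The HDAC inhibitors moved the set in both directions. LAQ824 raised 19 of 35 members (54.3%, beside 32.4% of all genes) and lowered 7 (20%, beside 28.1%), and WT161 raised 10 (28.6%, beside 23%) and lowered 7 (20%, beside 18.8%). MC1568 raised 9 (25.7%, beside 28.3%) and lowered none. For WT161 and MC1568 the shares of members called were thus near those of all genes. Merck60 and OJI-1 had no member called, beside 0.648% and 1.22% of all genes called in either direction. LAQ824 had 23 members called without its low dose and 21 without its high dose, whereas WT161 had 4 without its high dose, MC1568 1 without its high dose, and WT161 9 with DMSO averaged within concentration.

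Averaged over doses, TM7SF2 had the largest rise of the members under LAQ824, WT161 and MC1568. TM7SF2 was at 89.3 and 91.6 TPM at 5 and 0.5 µM LAQ824, at 48.1 and 15.5 TPM under WT161 and at 45.2 and 17.8 TPM under MC1568, against 7.39 to 8.56 TPM in DMSO. Under OJI-1 (9.49 and 9.16 TPM) and Merck60 (8.52 and 8.93 TPM) it lay at or just above the DMSO range. The log2 fold change was 3.36 ± 0.46 under LAQ824 (limma adjusted p = 5.79e-07), 1.68 ± 0.46 under WT161 (limma adjusted p = 0.00431) and 1.72 ± 0.46 under MC1568 (limma adjusted p = 0.00486). STARD4, at 22.6 to 27.5 TPM in DMSO, was at 74.0 and 63.2 TPM under LAQ824, 97.3 and 65.8 TPM under MC1568 and 59.5 and 42.6 TPM under WT161, and it was called under all 3.

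Of the transport and LXR group, NPC1, NPC2 and MYLIP rose under both LAQ824 and WT161. ABCG1 was at 6.15 and 5.85 TPM under LAQ824 and 5.33 and 1.45 TPM under WT161, and NPC1, which exports cholesterol from lysosomes, was at 241 and 269 TPM and at 189 and 126 TPM, against 88.7 to 92.0 TPM in DMSO. LAQ824 had log2 fold changes of 1.49 ± 0.18 for NPC1 (limma adjusted p = 1.41e-07) and 1.58 ± 0.24 for MYLIP (limma adjusted p = 2.92e-06). SREBF1, which LXR also raises, went from 30.4 to 36.9 TPM in DMSO to 134 and 128 TPM under LAQ824 (1.93 ± 0.25, limma adjusted p = 2.24e-07) and 75.2 and 62.6 TPM under MC1568 (1.00 ± 0.25, limma adjusted p = 0.00272). Under WT161 SREBF1 was at 85.1 TPM at the high and 28.3 TPM at the low dose, on either side of DMSO. ABCA1, the other exporter, stayed between 0 and 0.293 TPM in every sample of the series, on at most 26 reads.

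Some genes of fatty acid synthesis fell under LAQ824 and WT161. FADS2, a fatty acid desaturase, was at 18.6 to 21.8 TPM in DMSO and at 11.2 and 11.3 TPM under LAQ824 and 12.7 and 9.19 TPM under WT161. The log2 fold changes were -0.79 ± 0.13 (limma adjusted p = 6.61e-06) and -0.83 ± 0.13 (limma adjusted p = 9.93e-06). LAQ824 lowered FADS1, FADS2, ELOVL6, the elongase of palmitate, and SCD, 4 of 7 members of the group, and WT161 lowered FADS1, FADS2, FASN and ACLY, while ACACA, which makes malonyl-CoA, was called under neither. MC1568 had a positive mean change of the group, 0.25 at the high and 0.17 at the low dose. The median of all genes was higher in these samples, at 0.29 and 0.21. FADS1 had the largest fall, -1.64 ± 0.20 under LAQ824 (limma adjusted p = 1.35e-07). The FADS1 and FADS2 gene bodies overlap in hg19 (chromosome 11, 61567097 to 61584529 and 61583675 to 61634826), and whether reads were counted by strand is not stated, so the split between them is uncertain. MC1568 raised FADS2 (0.34 ± 0.13, limma adjusted p = 0.0399), to 23.5 and 28.0 TPM.

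In SREBP control, SREBF2 was called lower under LAQ824, at 126 and 130 TPM against 176 to 194 TPM in DMSO (-0.52 ± 0.15, limma adjusted p = 0.00323), and under WT161 (-0.41 ± 0.15, limma adjusted p = 0.0283). SCAP was called higher under LAQ824, MC1568 and WT161 (0.51, 0.41 and 0.30), in contrast to its fall under UNC0638. INSIG1 was at 191 and 160 TPM under LAQ824 (1.13 ± 0.45, limma adjusted p = 0.0317), at 107 and 91.3 TPM under WT161 and at 142 and 97.1 TPM under MC1568, all above DMSO and far below the 1067 TPM of UNC0638. Merck60 had the lowest INSIG1 of the series, at 32.2 TPM at the high and 64.5 TPM at the low dose. It also held the lowest screen values of HMGCS1 (56.1 TPM), SQLE (77.5 TPM), DHCR7 (45.9 TPM) and IDI1 (52.8 TPM), all at the high dose. None of these was called. Under OJI-1 the set mean was 0.43 at the high and -0.04 at the low dose, with INSIG1 at 160 and 107 TPM and SREBF1 at 41.5 and 21.9 TPM.

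**Figure D3:**
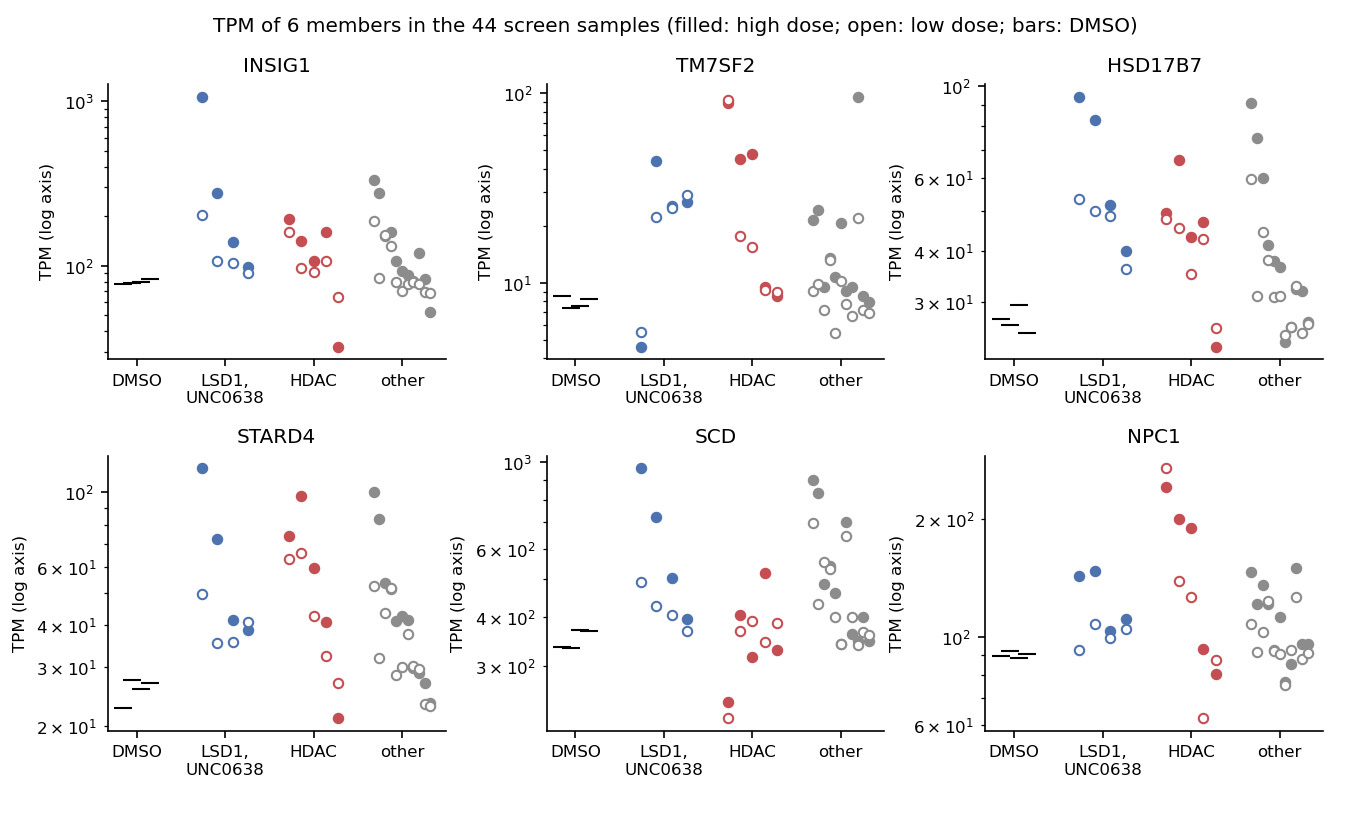
TPM (vertical axis, log scale, 1 panel per gene) of INSIG1, TM7SF2, HSD17B7, STARD4, SCD and NPC1 in the 44 screen samples, with DMSO as bars and compounds as points in 3 groups (filled for the high, open for the low dose; compounds in the order of the set-mean plot). UNC0638 at the high dose stands alone for INSIG1 at 1067 TPM, TM7SF2 is below DMSO under UNC0638 at 4.61 and 5.49 TPM and up to 91.6 TPM under LAQ824, and SCD lies below DMSO under LAQ824 at 242 and 220 TPM.

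The difference between UNC0638 with the LSD1 inhibitors and the HDAC inhibitors was tested directly, with the 4 and 5 compounds as units. No member and 0% of all genes passed at an adjusted p below 0.05 in limma, whereas 4 members and 1179 genes had an unadjusted p below 0.05. The 4 members were FASN (0.44 ± 0.16), SCD (0.56 ± 0.22), ACAT2 (0.71 ± 0.27) and SREBF2 (0.44 ± 0.17), all higher under UNC0638 and the LSD1 inhibitors, each with a limma adjusted p of 0.554. ACAT2, which makes acetoacetyl-CoA, ran from 169 to 484 TPM with a median of 214 TPM in the 8 samples of UNC0638 and the LSD1 inhibitors and from 105 to 282 TPM with a median of 140 TPM in the 10 of the HDAC inhibitors. The ranges of the classes thus overlapped. The class medians of the set mean were 0.61 and 0.43 at the high dose and 0.19 and 0.13 at the low dose, and their ranges overlapped as well. By role, the high-dose medians were 0.37 and -0.13 for fatty acid synthesis and 0.28 and 0.76 for transport and LXR. Their ranges overlapped too, from 0.19 to 0.57 and from -0.59 to 0.28 for fatty acid synthesis and from -0.0045 to 0.51 and from 0.05 to 1.48 for transport and LXR.

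**Figure D4:**
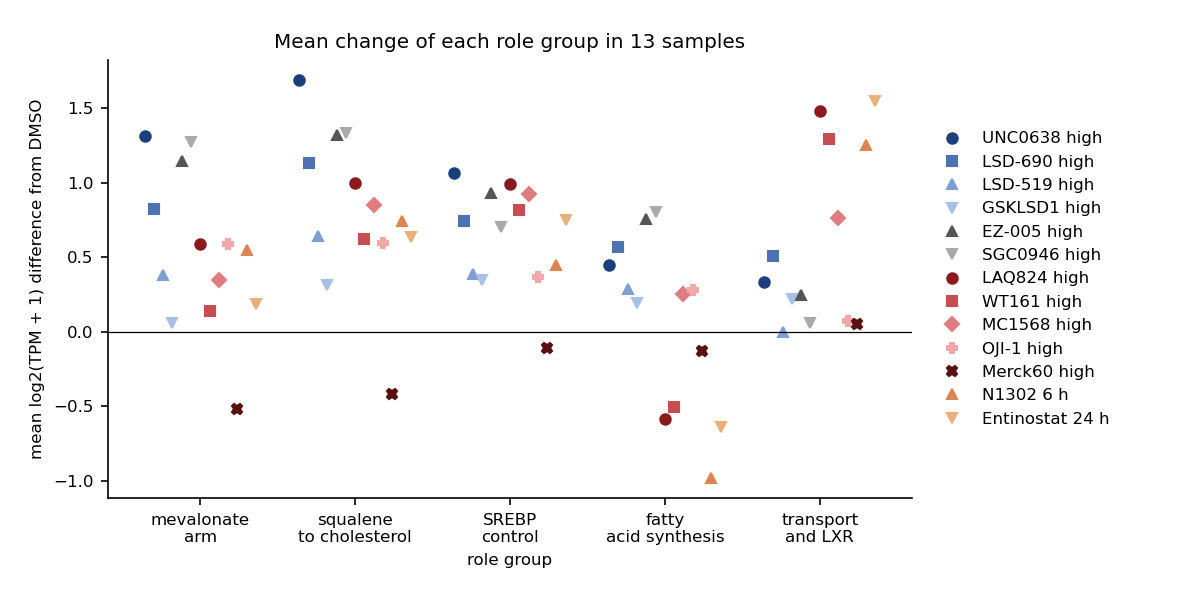
Mean difference in log2(TPM + 1) from DMSO (vertical axis) of each role group (horizontal axis) in 13 samples, 1 point per sample: UNC0638, the LSD1 and the HDAC inhibitors, EZ-005 and SGC0946 at the high dose, N1302, and entinostat at 24 h. In fatty acid synthesis LAQ824, WT161, N1302 and entinostat lie at -0.50 to -0.98 and Merck60 at -0.13, while MC1568 (0.25) and OJI-1 (0.28) lie above 0 with the other samples, and in transport and LXR OJI-1 (0.07) and Merck60 (0.05) lie far below LAQ824 (1.48). The median of all genes under MC1568 at the high dose is 0.29.

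Dose was examined within compounds, since both doses of a compound shared a flow cell. Over 20 compounds no member and 0% of all genes passed between high and low dose with limma, and 22 members and 2874 genes had an unadjusted p below 0.05. All 22 were higher at the high dose. Ordered by p rather than by size, the first were TM7SF2 (0.56 ± 0.14, limma adjusted p = 0.119), NPC1 (0.23 ± 0.06, limma adjusted p = 0.119), STARD4 (0.38 ± 0.10, limma adjusted p = 0.122) and HSD17B7 (0.29 ± 0.07, limma adjusted p = 0.122). The test compared doses as they were and did not subtract the DMSO of each dose, in which TM7SF2 was at 8.56 and 7.39 TPM at 0.2% and 7.55 and 8.22 TPM at 0.1%. The difference in dose step between UNC0638 with the LSD1 inhibitors and the HDAC inhibitors passed for no member and for 0% of all genes. Its smallest unadjusted p among members belonged to EBP, a sterol isomerase, whose dose step was 0.49 and -0.11 in the classes (difference 0.60 ± 0.16, limma adjusted p = 0.721).

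EZ-005 raised 10 of 35 members (28.6%, beside 0.232% of all genes, which is 38 genes in all) and lowered none. STARD4 was at 101 and 52.4 TPM against 22.6 to 27.5 TPM in DMSO (1.47 ± 0.31, limma adjusted p = 0.0269), HSD17B7 at 90.8 and 59.5 TPM (1.41 ± 0.24, limma adjusted p = 0.00636) and HMGCS1 at 331 and 210 TPM (1.58 ± 0.36, limma adjusted p = 0.0355). Both doses lay above every DMSO sample for each of these. FDFT1 (1.31 ± 0.29) and SQLE, squalene epoxidase (1.19 ± 0.26), were also called, as were CYP51A1, FDPS, ACAT2, ACACA and SCD. INSIG1, at 333 and 188 TPM, was not (limma adjusted p = 0.096). The count of called members was 0 with the other compounds of the flow cell as reference, 0 with DMSO averaged within concentration, 0 without the high dose, 3 without the low dose and 23 with only the samples of EZ-005 and DMSO.

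Under SGC0946 the doses were far apart. INSIG1 was at 277 and 84.1 TPM, HMGCS1 at 292 and 103 TPM, and FDPS, at 233 to 242 TPM in DMSO, at 558 and 314 TPM. FDPS was the 1 member called of 35 (2.86%, beside 0.538% of all genes), with 0.82 ± 0.16 (limma adjusted p = 0.00983). At the high dose 18 members lay at least 2-fold above DMSO, beside 1.74% of all genes, and at the low dose none did, beside 1.25%. Without the low dose 10 members were called, and without the high dose 0. Trametinib and UNC1999 gave smaller changes of like size at both doses, with INSIG1 at 161 and 131 TPM and at 153 and 153 TPM. No member was called under either, beside 6.14% and 0.789% of all genes called in either direction, although 13 and 14 members were higher at an unadjusted p below 0.05. When each compound was fitted with DMSO alone, 29 members were called under trametinib and 18 under UNC1999. Shares of all genes were not counted for the unadjusted p or for the fits with DMSO alone.

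INSIG2, the less sterol-dependent relative of INSIG1, was at 138 and 127 TPM under Cpd50 against 15.2 to 20.1 TPM in DMSO, with a log2 fold change of 2.83 ± 0.23 (limma adjusted p = 6.05e-10). SREBF1 was at 73.5 and 67.2 TPM (1.04 ± 0.25, limma adjusted p = 0.00533) and SCD at 701 and 648 TPM (0.94 ± 0.22, limma adjusted p = 0.00474). Both doses lay close together, and above DMSO, for each. Cpd50 raised 4 of 35 members (11.4%, beside 5.22% of all genes) and lowered ACLY, the ATP citrate lyase (1 member or 2.86%, beside 5.73%). INSIG1 was at 88.0 and 77.2 TPM and HMGCS1 at 77.2 and 68.7 TPM, the latter below the DMSO range at both doses. Without the high dose 1 member was called and without the low dose 3.

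Bromosporin raised 4 members (11.4%, beside 16.5% of all genes) and lowered 4 (11.4%, beside 29.5%). TM7SF2 was at 96.1 TPM at the high and 22.1 TPM at the low dose (2.41 ± 0.46, limma adjusted p = 0.000145), the former being the highest TM7SF2 level of the screen. MYLIP rose (1.13 ± 0.24, limma adjusted p = 0.000469), as did NPC1 (0.60) and NPC2, its soluble partner (0.35). ELOVL6 (-0.96), MSMO1 (-0.92), FADS1 (-0.74) and PMVK (-0.47) fell. Without the high dose 0 members were called, and without the low dose 13. SGC-CBP30 raised FADS2 alone (2.86%, beside 3.73% of all genes), to 26.1 and 28.9 TPM (0.43 ± 0.13, limma adjusted p = 0.0286). That call was lost without either dose, with median-ratio scaling, with DMSO averaged and with a fold threshold of 2. Under GSKJ4, PFI-2, PFI-3 and UNC-1215 no member was called, beside 0.00611%, 1.91%, 0.0245% and 0.0672% of all genes called in either direction.

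N1302 and entinostat had 1 sample per condition, so their values have no replicate check and no test. Under N1302 the set mean was 0.36, with 9 of 35 members at least 2-fold above DMSO (beside 11.6% of all genes) and 4 at least 2-fold below (beside 19.3%). TM7SF2 went from 5.16 to 84.2 TPM, SREBF1 from 7.78 to 32.8 TPM, NPC1 from 82.9 to 195 TPM and DHCR7, which makes cholesterol from its last precursor, from 45.1 to 135 TPM. SCD went from 445 to 196 TPM and FADS2 from 20.4 to 8.17 TPM, while INSIG1 went from 73.2 to 78.9 TPM. The mean change was 1.25 for transport and LXR and -0.98 for fatty acid synthesis. Median-ratio scaling shifted every N1302 change by 0.33, which moved these means to 1.57 and -0.66 and the set mean to 0.69, and left 11 members at least 2-fold above and 0 at least 2-fold below DMSO. The same shift applies to all genes, whose shares past 2-fold after scaling were not counted.

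Entinostat was followed over time. At 1 h the set mean was -0.02. No member lay 2-fold from DMSO on the log2(TPM + 1) scale, beside 0.66% of all genes above and 0.581% below. At 6 h it was 0.24, with 3 members at least 2-fold above (beside 5.13%) and none below (beside 0.947%). At 24 h it was 0.41, with 10 above (beside 16.4%) and 2 below (beside 6.06%). HMGCS1 was at 113, 185 and 432 TPM under entinostat at 1, 6 and 24 h and at 116, 119 and 167 TPM in DMSO. STARD4 was at 18.4, 58.2 and 119 TPM against 21.0, 25.8 and 36.3 TPM in DMSO. Both were also higher at 24 h than at 1 h in DMSO, by less. TM7SF2 was at 8.16, 27.3 and 46.2 TPM against 6.64, 9.84 and 14.3 TPM, and ABCG1 at 0.104, 1.45 and 4.47 TPM against 0.423, 0.234 and 0.273 TPM. FADS2 was at 20.3, 15.6 and 3.88 TPM against 20.9, 20.4 and 20.9 TPM, and ACAT2 went from 265 TPM in DMSO to 118 TPM at 24 h. INSIG1 was at 183 TPM at 24 h against 109 TPM in DMSO.

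**Figure D5:**
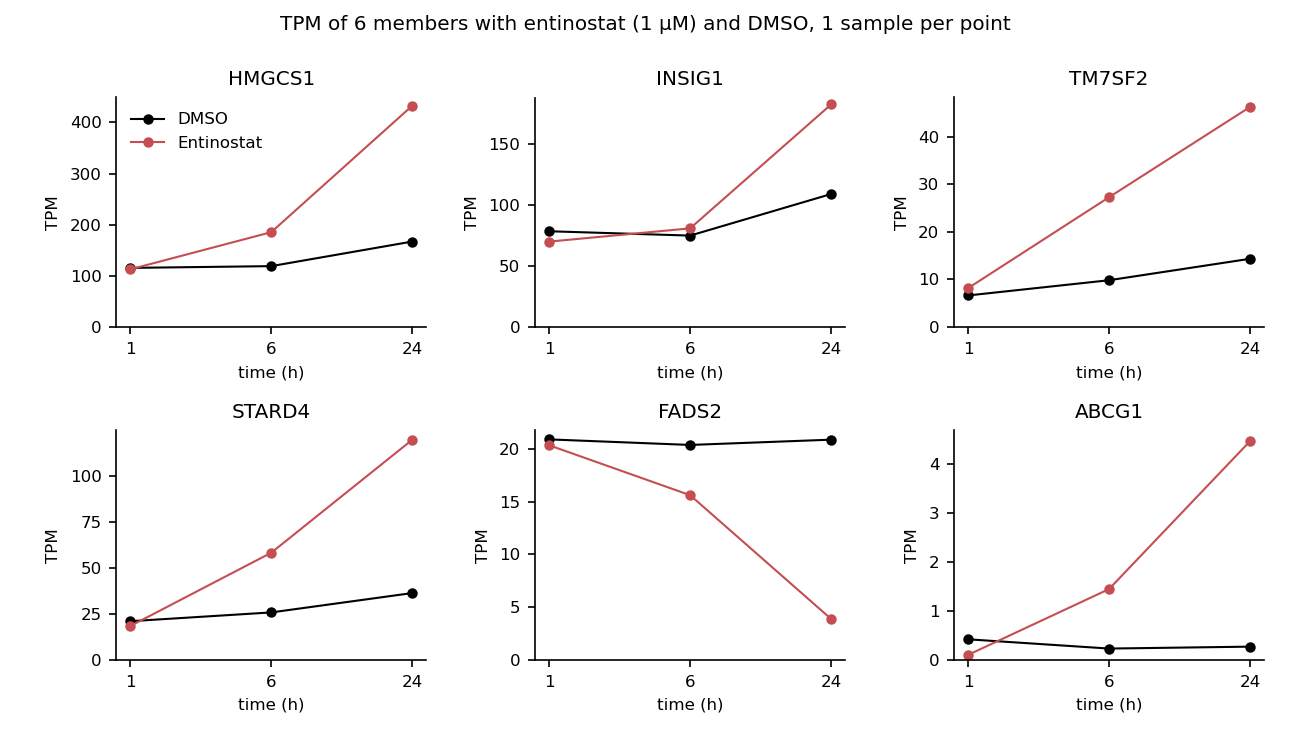
TPM (vertical axis, from 0) of 6 members at 1, 6 and 24 h (horizontal axis, evenly spaced) with entinostat at 1 µM (red) and with DMSO (black), 1 sample per point. HMGCS1, TM7SF2, STARD4 and ABCG1 separate from DMSO by 6 h and further at 24 h, INSIG1 separates at 24 h (183 against 109 TPM), and FADS2 falls to 3.88 TPM at 24 h.

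Across all 40 treated screen samples the SREBP control members were set against the range of the 4 DMSO samples. INSIG1 lay above the DMSO range in 28 and below it in 8 samples, SREBF1 above in 26 and below in 5, and SREBF2 above in 24 and below in 9. STARD4 was above DMSO in 34 samples, the most of any member. SCAP went the other way, with 22 samples below DMSO and 7 above. SREBF2 stayed within 2-fold of DMSO in every screen sample, from 126 TPM under LAQ824 to 288 TPM under EZ-005. These counts take in the 28 samples of C5JW5ACXX and the 4 of H0VWNAGXX, flow cells without DMSO. The part of the flow cell in them was not tested.

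Of 16 further genes of sterol and fatty acid metabolism, 15 passed the filter. Under the 5 HDAC inhibitors 19 of 75 gene-by-compound pairs were called higher and 9 lower, beside 16.8% and 10.6% over all genes. Under UNC0638 and the LSD1 inhibitors 2 of 60 pairs were higher and 0 lower, beside 4.29% and 5.43%, and under the other compounds 6 of 165 were higher and 6 lower, beside 2.76% and 4.26%. LAQ824 raised 7 and lowered 6 of the 15, beside 32.4% and 28.1% of all genes. ACSS2, a cytosolic acetyl-CoA synthetase and SREBP target, rose under LAQ824 (1.11 ± 0.21), WT161 (0.96 ± 0.21), MC1568 (0.90 ± 0.21) and SGC0946 (0.89 ± 0.21), and LIPA, the lysosomal acid lipase, rose under LAQ824 (1.16 ± 0.15), WT161 (0.81 ± 0.15) and MC1568 (0.56 ± 0.15). NR1H2, which encodes an LXR, fell under LAQ824 (-1.42 ± 0.20), WT161 (-1.30 ± 0.20) and bromosporin (-0.93 ± 0.20). TMEM97, a sterol-regulated membrane protein, rose under UNC0638 (0.67 ± 0.20) and EZ-005 (0.89 ± 0.20) and fell under LAQ824 (-0.78 ± 0.20). Of 16 lysosome genes 15 passed the filter. LAQ824 raised 12 (beside 32.4% of all genes) and lowered 1 (beside 28.1%), and WT161 raised 8 (beside 23%). MC1568 raised 7 (beside 28.3%) and lowered 1 (beside 805 of 16359 genes), and UNC0638 raised none and lowered 4 (beside 18.9%).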

How the data were processed

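RNA-seq of 52 samples was analysed from 1 deposited table of TPM per sample. Per the labels and the study's methods, the authors aligned reads of poly-A selected libraries to hg19 with STAR and estimated TPM with RSEM and the UCSC reference. The submitters' processing notes also name edgeR and GRCh37. Whether counting used strand is not given in the sources used here. Whole reads per gene were worked out from the steps of the low values, to give depth only.

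Values were taken as log2(TPM + 1). Of 27043 genes, the 16359 that reached 1 TPM in at least 2 of all 52 samples entered limma 3.58.1 (R 4.3.3, mean-variance trend), fitted to the 44 screen samples with 1 group per compound holding both doses and 1 group of 4 DMSO samples. P-values were adjusted by Benjamini-Hochberg over all tested genes within a compound, and tests were two-sided. The class comparison used compound averages and the dose step used differences within compounds. N1302 and entinostat, with 1 sample per condition, were not tested. The fit was also run on simulated data as a self-test, whose outcome is not given here. The alternatives were other pseudocounts, filters, scaling, fold thresholds, references and left-out samples.

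Members, role groups and the further lists were chosen with earlier results of these data known. Named members were fixed as FDPS, ACAT2, TM7SF2, HSD17B7, INSIG1, SREBF1, SREBF2, SCAP, STARD4, SCD, FADS2, NPC1, ABCA1 and ABCG1, with up to 5 called members of largest change per compound. Others named in the text were chosen after their values were seen. Replicate numbers of the screen DMSO samples follow the flow cell. Replicate 1 at both concentrations was in C4JM1ACXX with Cpd50 and GSKJ4, and replicate 2 in H144EBGXX with LAQ824 and MC1568. Deviations of samples with the same number had a correlation of 0.07 (2 pairs).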

Additional observations from a re-analysis of the deposited data

Results flagged for a closer look

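Single samples were set against the others of their group in 38 groups of 4 to 10 samples with Dixon's test, which by chance picks out about 1 group in 20. Among the HDAC inhibitors at the high dose, Merck60 stood apart with a set mean of -0.27, the other 4 lying between 0.41 and 0.65. It also stood apart in the mean change from squalene to cholesterol, with -0.42 against 0.60 to 1.00. Among UNC0638 and the LSD1 inhibitors at the low dose, UNC0638 stood apart with a set mean of 0.38 against 0.15 to 0.19, and with a mean change of the mevalonate arm of 0.65 against -0.02 to 0.08. Among the 4 screen DMSO samples, ACAT2 was at 162 TPM in replicate 1 at 0.2% and at 176 to 179 TPM in the others, and ABCA1 was at 0.082 TPM in replicate 2 at 0.1% and at 0.0435 to 0.0466 TPM in the others, which rests on at most 7 reads.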

How the results depend on the processing

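Calls are counted here as member-by-compound pairs: 52 for the HDAC inhibitors, 22 for UNC0638 and the LSD1 inhibitors and 25 for the other compounds. With a fold threshold of 2 they were 21, 17 and 11. With only a compound's own samples and DMSO in each fit they were 90, 41 and 121. Shares of all genes under these settings were not counted. With the other compounds of the flow cell as reference, possible for 14 compounds, the calls were 20, 20 and 19. In the fit against DMSO the same compounds had 17, 21 and 20. With DMSO averaged within concentration the other compounds had 9. Leaving out 1 sample at a time gave 40 to 53, 10 to 35 and 13 to 44 calls. The samples that moved a count by over 1.5 times were UNC0638 high (10 without it) and low (35), EZ-005 high (15), SGC0946 low (44) and each DMSO sample (13 or 14 for the other compounds). A lone remaining dose was assumed to vary like the other groups. No member was called for class, dose step, their difference or DMSO concentration under any alternative run, and the replicate block gave 0 calls between DMSO concentrations, as without it, with 1768 genes at an unadjusted p below 0.05 against 1548.

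For N1302 the set mean was 0.69 after median-ratio scaling, 0.44 after adding 0.1 rather than 1 TPM, 0.32 over genes averaging at least 5 TPM, and 0.23 when both 6 h DMSO samples served as reference. Entinostat was at -0.045 at 1 h with a pseudocount of 0.1. At 6 h it was at 0.28 with that pseudocount, 0.36 with scaling and 0.37 with both DMSO samples, and at 24 h at 0.46 with the pseudocount, 0.50 with scaling and 0.36 with the filter of 5 TPM. Over 27 named pairs and 202 alternatives, 182 kept their direction and their side of the threshold, 20 kept the direction but not the call, and 0 turned. The cause of these changes was not tested. Depth limits ABCA1 and ABCG1, which rest on few reads in DMSO.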
